A study of Mus musculus with 12 samples.

Results

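The lysosome digests what a monocyte takes up, and 43 of its genes were followed here in mouse bone marrow monocytes exposed to platelets, to lipopolysaccharide (LPS, a bacterial cell wall component that activates monocytes), or to both. The 43 genes were chosen by name from the 53819 in the count tables: 16 subunits of the vacuolar proton pump (V-ATPase), 10 lysosomal membrane proteins, 11 hydrolases other than cathepsins, 3 lumenal cofactors and 3 transcription factors of the TFE family. All 43 were found and all 43 were among the 13151 genes with enough counts to test. RNA sequencing covered 12 libraries, 3 in each of 4 groups, all from wild-type C57Bl6J bone marrow monocytes. One group was kept with platelets overnight, washed and then given LPS (platelet plus LPS), one was given LPS alone (LPS), one was kept with platelets overnight and given no LPS (platelet), and one was left untreated. The sources used here give neither the doses of platelets and LPS nor the time in LPS. The labels do not say if libraries of 1 group are separate animals or separate cultures, and so the p-values reflect no more than how these libraries vary, possibly for technical reasons.

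The V-ATPase acidifies the lysosome. Its V1 sector splits ATP on the cytosolic side, and its V0 sector, set in the membrane, carries protons into the lumen, where the acid hydrolases work. TFEB, TFE3 and MITF are related basic helix-loop-helix factors that bind a palindromic E-box in many lysosomal promoters, a site known as the CLEAR element, and the proteins are best known for being held in the cytosol by phosphorylation, which messenger RNA does not report.

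The core of that element is the 6-base E-box CACGTG. It was sought on both strands in RefSeq promoter windows (GRCm38.p6) that run from 250 bases before to 50 bases after each gene's start, which 36 of the 43 genes had. The E-box stood in the windows of 9 of the 36 (25.0%), against 11.8% of the 9788 tested genes with a window. Each of 2 longer forms contains the E-box, and they overlap each other: TCACGTGA was in 5 windows (13.9% against 2.26%) and GTCACGTG in 6 (16.7% against 4.91%). The stretches below are the longer matches in these genes, shown because they hold the E-box that TFE factors are known to bind. Capitals mark the match, and each line runs 5′ to 3′ in the direction of the gene.
Atp6v0b: tgcgcggggGTCACGTGgggtcggcgca
Atp6v0d1: cctactgcgGTCACGTGAgacgcggtgc
Atp6v0e: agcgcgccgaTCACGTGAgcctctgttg
Atp6v1a: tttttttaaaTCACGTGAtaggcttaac
Lamp1: atgccgactggCACGTGACcacatcacg
Mcoln1, site 1: gtcgcgcttGTCACGTGttcagttcagg
Mcoln1, site 2: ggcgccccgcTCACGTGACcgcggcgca
Gla, site 1: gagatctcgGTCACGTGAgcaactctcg
Gla, site 2: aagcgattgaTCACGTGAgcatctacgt
Glb1: tgcttctgaGTCACGTGgcctacagagg
In GRCm38.p6 they lie at chr4:117887349-117887376 on the minus strand (Atp6v0b), chr8:105566051-105566078 on the minus strand (Atp6v0d1), chr17:26676388-26676415 on the plus strand (Atp6v0e), chr16:44139374-44139401 on the minus strand (Atp6v1a) and chr8:13159122-13159149 on the plus strand (Lamp1). The Mcoln1 sites lie at chr8:3500437-3500464 on the plus strand and chr8:3500463-3500490 on the plus strand, the Gla sites at chrX:134601183-134601210 on the minus strand and chrX:134601216-134601243 on the minus strand, and the Glb1 site at chr9:114401019-114401046 on the plus strand. Gaa was the ninth gene with the E-box, in the 6-base form only. A match is a run of letters in a window and does not show that a factor binds there. The windows were matched by gene symbol, and the promoter used in these cells was not measured.

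Libraries held 20060867 to 32155727 counts, so that 3 counts in a library were worth 0.0854 to 0.163 CPM, the count of a gene relative to the library's total, each total scaled by its TMM factor (from a trimmed mean of M-values). All 10 monocyte and macrophage markers were tested and summed to 39231 to 42114 CPM with platelets plus LPS, 36499 to 40497 CPM with LPS, 38938 to 42092 CPM with platelets and 33158 to 36842 CPM untreated. Platelet replicate 1 is called a control in 1 label field, while its title and treatment name platelets, and it stands apart from the 2 other platelet libraries. The chi-square per degree of freedom of its counts against theirs was 72.2 and 79.8, against 6.40 to 20.1 for every other pair of libraries of 1 group, and its mitochondrial share of counts was 0.886%, against 0.431 to 0.600% in the 11 other libraries. It carried the most of the platelet transcript Gng11 (148, 77.1 and 73.6 CPM in the 3 platelet libraries, against 1.72, 1.65 and 2.07 CPM untreated) and was kept in the platelet group, with results without it given below.

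Per kilobase of annotated exon, the 43 genes spanned over 3 orders of magnitude in untreated cells. Psap, the precursor of the saposins that help sphingolipid hydrolases, averaged 1414 ± 83.7 CPM per kilobase and Cd68, a heavily glycosylated macrophage membrane protein, 1411 ± 74.9 (SD, n = 3), a difference within their spread. Grn (progranulin), Lamp1 (the main lysosomal membrane glycoprotein) and Laptm5, a membrane protein of blood cells, followed at 749 ± 8.75, 545 ± 11.6 and 338 ± 2.7 CPM per kilobase. The transcription factors Tfe3, Tfeb and Mitf stood near the bottom at 16.2 ± 0.688, 7.16 ± 0.220 and 4.80 ± 0.192 CPM per kilobase. The lowest level was that of Atp6v0d2, the V0 d subunit best known from osteoclasts, at 0.837 ± 0.149 CPM per kilobase, against 99.0 ± 7.74 for its widely expressed paralog Atp6v0d1. Exon lengths are those of all GENCODE M21 exons of a gene merged, while the sources used here do not name the annotation behind the counts. A merged length (9.261 kilobases for Tfe3, for example) can exceed that of the transcript a cell makes, which would set the level per kilobase too low. Part of the exon length overlaps another gene for Hexa (12.8%, Tmem202), Atp6v0b (11.8%, Gm12841), Lamp1 (9.31%, Grtp1), Glb1 (5.49%, Tmppe) and Npc1 (5.31%, Rmc1 and Gm15956). With the strand setting of the counting unstated, reads of such overlaps cannot be told apart.

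LPS changed about as large a share of these genes as of all genes, with more falls than rises, and by smaller steps. Against untreated cells, LPS alone raised 8 of the 43 and lowered 15 (53.5%), where 50.7% of all 13151 genes passed the test (27.7% higher, 23% lower; edgeR, adjusted p under 0.05). Platelet plus LPS against platelet raised 8 and lowered 17 (58.1%), where 49.4% of all genes passed (27.6% higher, 21.8% lower). These comparisons share no library but take their spread from 1 fit. In both, 21 genes passed in the same direction, 91.3% of the 23 and 84% of the 25. The matching share over all genes is not given here. The same 8 rose in both: Mitf, Tfe3, Atp6v1e1, Atp6v0b, Atp6v1b2, Atp6v1h, Laptm4a and Npc2. Those that fell in both were Atp6v0a1, Npc1, Tfeb, Atp6v1c1, Gusb, Neu1, Ppt1, Ctns, Cd68, Laptm5, Atp6v1d, Atp6v0d2 and Mcoln1. The median log2 fold change was -0.14 (platelet plus LPS against platelet) and -0.13 (LPS against untreated), against 0.021 and 0.0081 over all genes, and the median absolute value was 0.28 and 0.26, against 0.45 and 0.47.

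**Figure D1:**
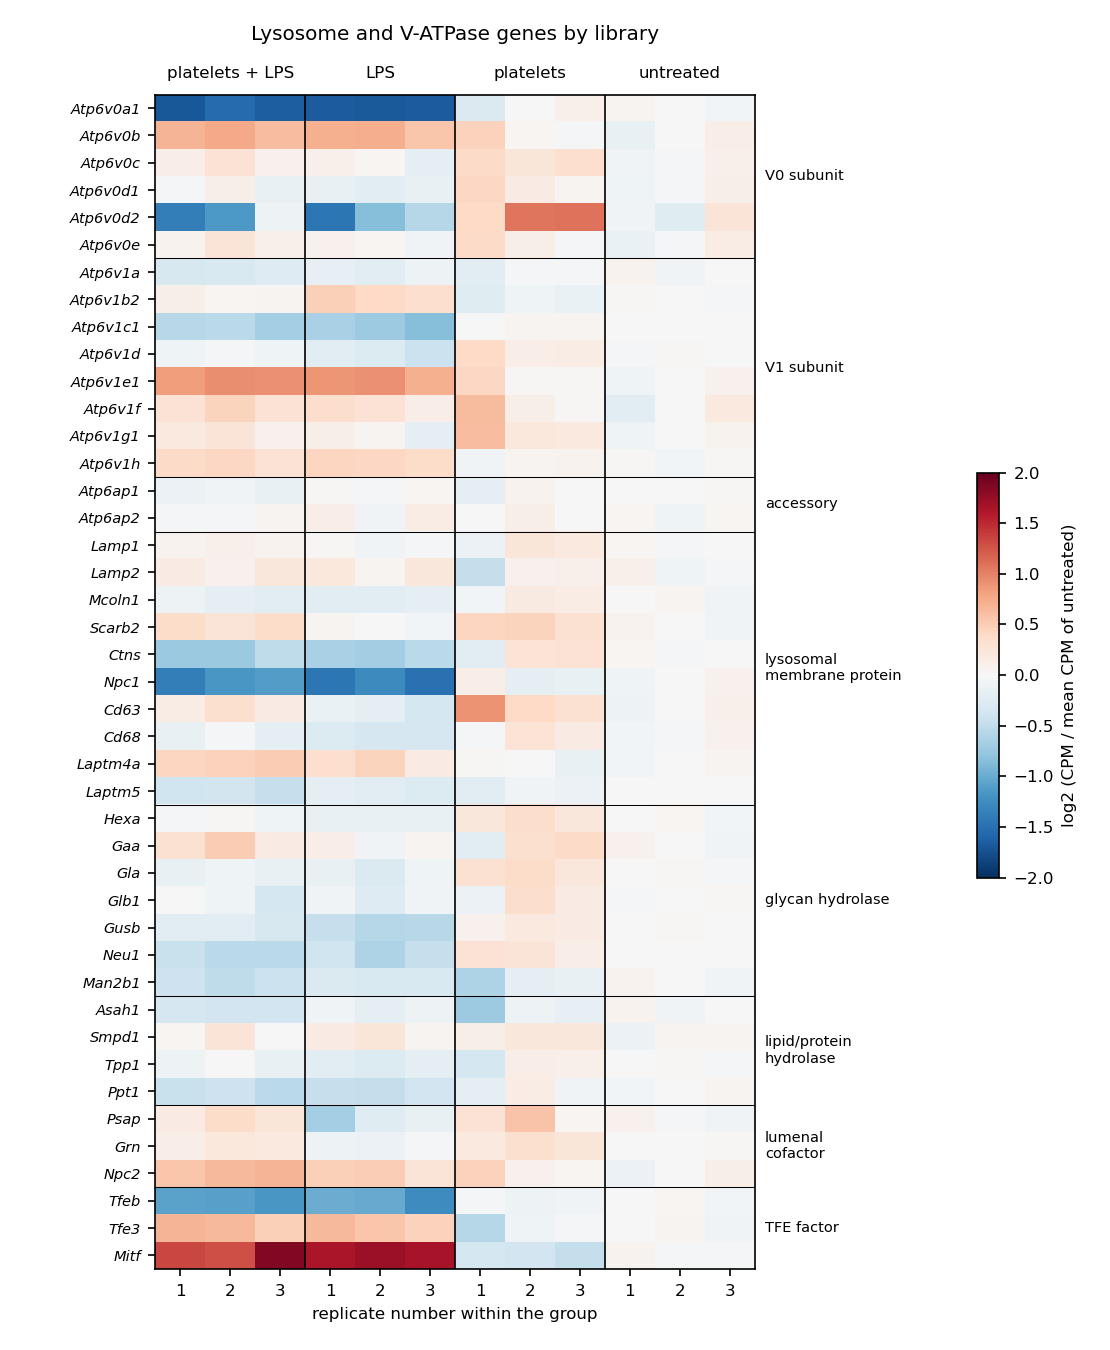
Level of each of the 43 genes in each of the 12 libraries, as log2 of CPM over the mean CPM of the untreated libraries (colour scale from -2 to 2), with genes in rows by role and libraries in columns by group and replicate number. Atp6v0a1, Npc1 and Tfeb are blue and Mitf is red in all 6 libraries given LPS, while platelet replicate 1 differs from platelet replicates 2 and 3 in many rows.

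The count of falls depends on how libraries are scaled. TMM factors were 0.859 to 0.915 in the 6 libraries given LPS and 1.08 to 1.16 in the 6 others, and the 43 genes made up 1.90 to 1.99% of counts with platelets plus LPS, 1.65 to 1.79% with LPS, 2.44 to 2.83% with platelets and 2.37 to 2.44% untreated. Scaling by library size alone moved the median log2 fold change of all genes by -0.36 (platelet plus LPS against platelet) and -0.38 (LPS against untreated), and upper-quartile scaling by -0.24 and -0.20. The members then showed 3 rises and 32 falls (platelet plus LPS against platelet) and 3 rises and 31 falls (LPS against untreated) by library size, and 4 and 30 and 6 and 27 by the upper quartile. The shares of all genes that rose and fell under these scalings are not given here, so these counts alone do not show an excess of falls. Relative to the median of all genes the members' median was -0.17 and -0.14 by library size and -0.16 and -0.14 by the upper quartile, close to the values by TMM. Mitf and Atp6v1e1 rose, and Atp6v0a1, Npc1, Tfeb and Atp6v1c1 fell, in both comparisons under each of these scalings. Among those that also fell under each scaling for LPS against untreated were Gusb, Neu1, Ppt1, Ctns, Cd68, Laptm5 and Atp6v1d. Without platelet replicate 1, which also enters the shared spread, 7 rose and 24 fell for platelet plus LPS against platelet and 9 rose and 22 fell for LPS against untreated. In the first comparison Atp6v1b2 was then lost and Atp6ap1, Lamp1, Glb1, Man2b1, Asah1, Tpp1 and Grn fell. In the second Atp6v1f rose and Atp6v0d1, Atp6v1a, Cd63, Hexa, Gla, Asah1 and Tpp1 fell. With 1 library left out, calls over all genes ranged from 5835 to 6754 in the first comparison and from 5906 to 7426 in the second. Their split by direction is not given here. In bulk RNA, fewer cells of a type and less RNA per cell cannot be told apart.

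Of the 16 proton pump genes, LPS raised 4 and lowered 5 with platelets present (56.2%, all genes 49.4%) and raised 4 and lowered 4 without (50%, all genes 50.7%), shares near those of all genes. The fall with the smallest p was in Atp6v0a1, the a1 isoform of the V0 subunit that anchors the pump and lines its proton path. Atp6v0a1 had 50.9, 56.5 and 52.9 CPM with platelets plus LPS against 135, 164 and 177 CPM with platelets, and 52.1, 51.6 and 52.2 CPM with LPS against 171, 165 and 159.5 CPM in untreated cells. All 6 libraries with LPS lay below all 6 without, with fitted folds of 0.337 and 0.314. For Atp6v0a1 the log2 fold changes were -1.57 ± 0.10 with platelets present (adjusted p = 1.31e-09) and -1.67 ± 0.10 without (adjusted p = 6.16e-10).

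Tcirg1 encodes the a3 isoform of the same subunit, known from osteoclasts and from the lysosomes of macrophages, and was on the list of other lysosome genes. Tcirg1 had 998, 1061 and 1032 CPM with platelets plus LPS against 341, 362 and 352 CPM with platelets, and 883, 897 and 902 CPM with LPS against 323, 324 and 331 CPM in untreated cells. Fitted for Tcirg1, the log2 fold changes were 1.55 ± 0.066 with platelets present (adjusted p = 1.19e-11) and 1.46 ± 0.066 without (adjusted p = 2.34e-11), so the isoforms moved apart. The log2 ratio of Tcirg1 to Atp6v0a1 counts was 4.27 ± 0.034 with platelets plus LPS and 4.11 ± 0.020 with LPS, against 1.16 ± 0.17 with platelets and 0.98 ± 0.067 untreated (SD, n = 3 each). A ratio of counts is not corrected for gene length, and its difference between groups does not depend on the scaling.

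**Figure D2:**
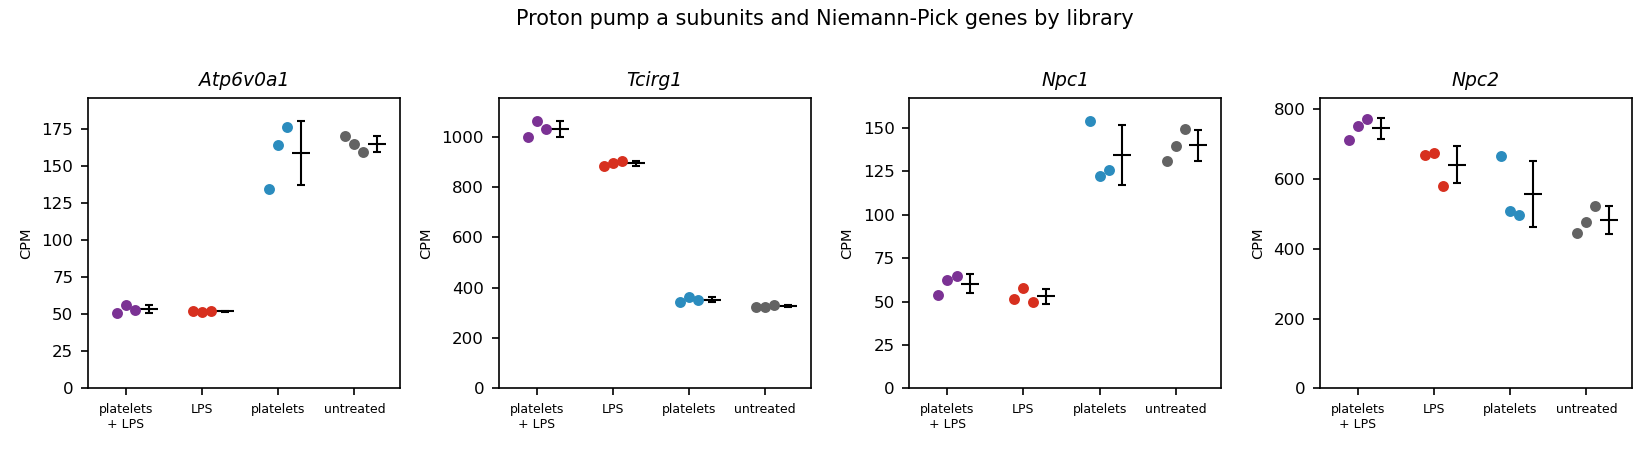
CPM of the V0 a subunit genes Atp6v0a1 and Tcirg1 and of the Niemann-Pick genes Npc1 and Npc2 in the 4 groups, with 1 point per library and the mean ± SD beside the points (n = 3). Atp6v0a1 and Npc1 are lower and Tcirg1 higher in every library given LPS, while Npc2 in platelet replicate 1 reaches the level of the LPS libraries.

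Of the other V0 genes, Atp6v0b, a proteolipid of the proton-carrying ring, rose with LPS. Atp6v0b had 655, 691 and 626 CPM with platelets plus LPS against 563, 418 and 400.5 CPM with platelets, and 666, 678 and 602 CPM with LPS against 367, 409.6 and 448 CPM in untreated cells. Platelet replicate 1 was again the highest library without LPS, and the groups did not overlap. For Atp6v0b the log2 fold changes were 0.51 ± 0.12 with platelets present (adjusted p = 0.00162) and 0.67 ± 0.12 without (adjusted p = 0.00017), the first of these being lost by library size or upper-quartile scaling.

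Atp6v0d2 fell with LPS from a low level. It had 0.873, 1.03 and 2.11 CPM with platelets plus LPS against 2.99, 4.78 and 4.84 CPM with platelets, and 0.833, 1.26 and 1.53 CPM with LPS against 2.17, 1.93 and 2.72 CPM in untreated cells. Fitted for Atp6v0d2, the log2 fold changes were -1.65 ± 0.34 with platelets present (adjusted p = 0.000818) and -0.94 ± 0.36 without (adjusted p = 0.0397), and the call for LPS alone was lost without LPS replicate 1 or 2 or untreated replicate 1 or 3 (adjusted p 0.0672 to 0.158, log2 fold change -0.98 to -0.71). Its paralog Atp6v0d1 had 175, 191 and 160.2 CPM with platelets plus LPS against 237, 199 and 184 CPM with platelets, and 159.9, 154 and 161 CPM with LPS against 167, 173 and 193 CPM in untreated cells. The Atp6v0d1 log2 fold changes of -0.23 ± 0.10 and -0.16 ± 0.10 did not pass (adjusted p = 0.0699 and 0.198). Atp6v0c, the main ring proteolipid, and the small subunit Atp6v0e did not pass either.

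Among the V1 genes, Atp6v1e1, part of the peripheral stalks that hold the catalytic head, rose most. Atp6v1e1 had 503, 532 and 526 CPM with platelets plus LPS against 374, 284 and 286 CPM with platelets, and 517, 526 and 460.4 CPM with LPS against 264, 279 and 298 CPM in untreated cells. For Atp6v1e1 the log2 fold changes were 0.73 ± 0.10 with platelets present (adjusted p = 2.23e-05) and 0.84 ± 0.10 without (adjusted p = 4.71e-06), and the LPS libraries lay above all others. Atp6v1c1, which links the stalks to V0, moved the other way with 298, 300.4 and 272 CPM with platelets plus LPS against 433, 452 and 452 CPM with platelets, and 277, 262 and 243 CPM with LPS against 439, 433 and 436 CPM in untreated cells. Fitted for Atp6v1c1, the log2 fold changes were -0.62 ± 0.076 with platelets present (adjusted p = 4.32e-06) and -0.74 ± 0.076 without (adjusted p = 5.49e-07). Both genes thus separated the libraries with LPS from those without, in opposite directions.

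Atp6v1b2, the regulatory B subunit of the head, had 594, 563 and 565 CPM with platelets plus LPS against 459.6, 513 and 497 CPM with platelets, and 762, 722 and 689 CPM with LPS against 558, 542 and 539 CPM in untreated cells. For Atp6v1b2 the log2 fold changes were 0.23 ± 0.072 with platelets present (adjusted p = 0.0152) and 0.41 ± 0.072 without (adjusted p = 0.000195). The first of these is the weaker call: it was lost without platelet plus LPS replicate 1 or platelet replicate 1 (adjusted p 0.0702 and 0.087, log2 fold change 0.20 and 0.13), and the direction turned to -0.13 by library size and -0.012 by the upper quartile. Atp6v1h, a subunit that controls coupling of the sectors, rose by 0.34 ± 0.075 and 0.41 ± 0.075 (log2 fold change with and without platelets), the first turning to -0.026 by library size. The central stalk subunit Atp6v1d fell by 0.31 in both comparisons on the log2 scale (SE 0.089 each). The catalytic subunit Atp6v1a passed in the comparison with platelets present (log2 fold change -0.20 ± 0.074, adjusted p = 0.0332), a call lost without platelet plus LPS replicate 1, 2 or 3 or platelet replicate 2 or 3 (adjusted p 0.0581 to 0.123), and without platelets it was -0.16 ± 0.074 (adjusted p = 0.0901). Leaving out platelet replicate 1 gave -0.32 (adjusted p = 0.00039) and -0.18 (adjusted p = 0.0123). The difference between these values did not pass the interaction test (log2 -0.045 ± 0.11, adjusted p = 0.953). Atp6v1f, Atp6v1g1 and the accessory subunits Atp6ap1 and Atp6ap2 did not pass in either comparison.

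**Figure D3:**
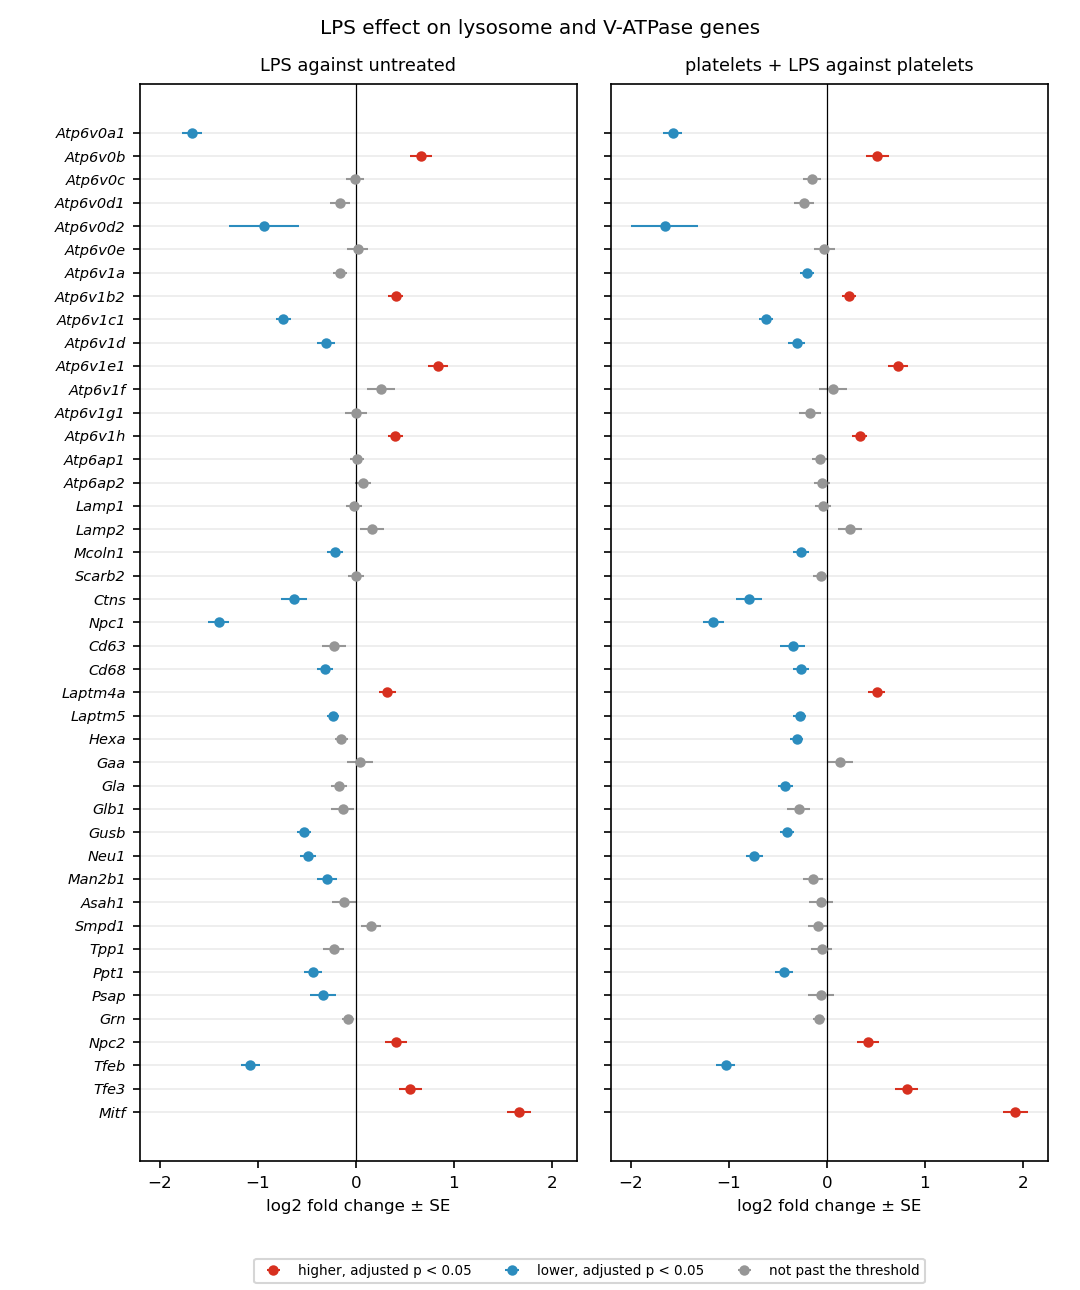
Fitted log2 fold change ± SE of each of the 43 genes for LPS against untreated cells (left) and for platelets plus LPS against platelets (right), on a shared axis, coloured by direction where the adjusted p is under 0.05. The 8 rises are the same genes in both panels, and Atp6v0a1 (-1.67 left, -1.57 right) and Mitf (1.67 left, 1.92 right) lie near the ends.

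Of the 10 lysosomal membrane proteins, LPS raised 1 and lowered 6 with platelets present (70%, all genes 49.4%) and raised 1 and lowered 5 without (60%, all genes 50.7%). Npc1, which moves cholesterol out through the lysosomal membrane, fell most. Npc1 had 53.9, 62.1 and 64.6 CPM with platelets plus LPS against 154, 123 and 126 CPM with platelets, and 51.5, 58.1 and 49.6 CPM with LPS against 131, 139 and 149 CPM in untreated cells. Fitted for Npc1, the log2 fold changes were -1.16 ± 0.11 with platelets present (adjusted p = 2.02e-07) and -1.40 ± 0.11 without (adjusted p = 2.07e-08), with no overlap between libraries with and without LPS. Npc2, the lumenal protein that hands cholesterol to Npc1, rose instead, with 711, 753 and 771 CPM with platelets plus LPS against 665, 509 and 496 CPM with platelets, and 669, 675 and 579 CPM with LPS against 444, 478 and 523 CPM in untreated cells. For Npc2 the log2 fold changes were 0.42 ± 0.11 with platelets present (adjusted p = 0.00436) and 0.41 ± 0.11 without (adjusted p = 0.00484), both lost by library size or upper-quartile scaling. The groups of Npc2 overlapped once platelet replicate 1 (665 CPM) was set beside the LPS libraries, though each pair of groups compared did not overlap.

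Ctns, the cystine exporter, had 14.7, 14.7 and 17.2 CPM with platelets plus LPS against 21.1, 29.5 and 29.9 CPM with platelets, and 15.6, 15.1 and 16.9 CPM with LPS against 25.3, 23.8 and 24.4 CPM in untreated cells. Fitted for Ctns, the log2 fold changes were -0.79 ± 0.13 with platelets present (adjusted p = 0.000111) and -0.63 ± 0.13 without (adjusted p = 0.000846). The calcium channel gene Mcoln1, which carries 2 of the sites printed above, fell by 0.26 and 0.21 on the log2 scale (SE 0.085 and 0.085, adjusted p = 0.0165 and 0.05). The last of these is 0.05 only after rounding and was lost without any library other than platelet replicate 1 (adjusted p 0.0561 to 0.168). The call with platelets present was lost without platelet plus LPS replicate 3 or platelet replicate 2 or 3 (adjusted p 0.054 to 0.0776). Cd68 fell by 0.26 and 0.32 (SE 0.081 each), the first lost without platelet plus LPS replicate 3 or platelet replicate 2 (adjusted p 0.0602 and 0.0811) and at -0.40 (adjusted p = 2.56e-05) without platelet replicate 1. Cd63 was at -0.35 ± 0.13 with platelets (adjusted p = 0.0316), a call lost without platelet plus LPS replicate 1 or 3 (adjusted p 0.0942 and 0.0973) and at -0.20 (adjusted p = 0.0348) without platelet replicate 1, and at -0.22 ± 0.13 without platelets (adjusted p = 0.159).

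The related genes Laptm4a and Laptm5, whose proteins pass other membrane proteins to the lysosome, moved in opposite directions. Laptm4a had 229, 235 and 243 CPM with platelets plus LPS against 173, 171 and 153 CPM with platelets, and 215, 233 and 191 CPM with LPS against 165, 169 and 178 CPM in untreated cells. For Laptm4a the log2 fold changes were 0.51 ± 0.087 with platelets present (adjusted p = 0.000145) and 0.32 ± 0.087 without (adjusted p = 0.00599), the second lost by the upper quartile and turning to -0.060 by library size, which also lost the first. Laptm5 had 969.6, 993 and 932 CPM with platelets plus LPS against 1101, 1222 and 1180.0 CPM with platelets, and 1125, 1094 and 1056 CPM with LPS against 1269.7, 1287 and 1288 CPM in untreated cells. Fitted for Laptm5, the log2 fold changes were -0.28 ± 0.066 with platelets present (adjusted p = 0.00264) and -0.23 ± 0.066 without (adjusted p = 0.0083), so each gene kept its direction with and without platelets.

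Lamp1 and Lamp2, the glycoproteins that coat the inner face of the lysosomal membrane, did not pass with all libraries. Lamp1 had 1534, 1556 and 1527 CPM with platelets plus LPS against 1344, 1728 and 1672 CPM with platelets, and 1487, 1388 and 1438 CPM with LPS against 1492, 1433 and 1446 CPM in untreated cells. Lamp2 had 436, 415 and 459 CPM with platelets plus LPS against 282, 414 and 417 CPM with platelets, and 452, 407 and 459 CPM with LPS against 421, 368 and 385 CPM in untreated cells. The Lamp1 log2 fold changes were -0.039 ± 0.083 and -0.019 ± 0.083 (adjusted p = 0.729 and 0.874) and those of Lamp2 0.23 ± 0.12 and 0.17 ± 0.12 (adjusted p = 0.129 and 0.285). Platelet replicate 1 was the lowest library of both genes, and without it the values with platelets present were -0.20 (adjusted p = 0.00384) for Lamp1 and 0.014 (adjusted p = 0.898) for Lamp2. Scarb2, the receptor that brings glucocerebrosidase to the lysosome, was at -0.063 ± 0.080 and 0.00015 ± 0.081 (adjusted p = 0.548 and 1.0).

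Hydrolases fell or did not pass, and none of the 11 rose with LPS, where 27.6% of all genes rose with platelets present and 27.7% without. Among the 7 glycan hydrolases, 4 fell with platelets present (57.1%, all genes 49.4% in either direction and 21.8% lower). Without platelets 3 fell (42.9%, all genes 50.7% in either direction and 23% lower). Neu1, the lysosomal sialidase, had 77.2, 72.1 and 71.9 CPM with platelets plus LPS against 128, 126 and 115 CPM with platelets, and 79.3, 68.4 and 76.4 CPM with LPS against 104, 105 and 106 CPM in untreated cells. For Neu1 the log2 fold changes were -0.74 ± 0.083 with platelets present (adjusted p = 1.8e-06) and -0.49 ± 0.083 without (adjusted p = 0.000133). Gusb, which removes glucuronic acid, had 494, 502 and 462 CPM with platelets plus LPS against 614, 665 and 648 CPM with platelets, and 418, 390.1 and 395 CPM with LPS against 574, 586 and 574 CPM in untreated cells. Fitted for Gusb, the log2 fold changes were -0.40 ± 0.070 with platelets present (adjusted p = 0.000167) and -0.53 ± 0.070 without (adjusted p = 1.07e-05). The libraries with LPS lay below those without for both genes. Man2b1, the lysosomal alpha-mannosidase, passed in the comparison without platelets (log2 fold change -0.29 ± 0.10, adjusted p = 0.0259, lost without LPS replicate 1, 2 or 3 or untreated replicate 1 or 2 at adjusted p 0.0601 to 0.0999) and was at -0.14 ± 0.10 with platelets (adjusted p = 0.287), where leaving out platelet replicate 1 gave -0.33 (adjusted p = 0.000389). Hexa, the alpha subunit of beta-hexosaminidase, and Gla, alpha-galactosidase A, passed in the comparison with platelets (log2 fold change -0.31 ± 0.069 and -0.42 ± 0.080), and at -0.15 ± 0.069 and -0.17 ± 0.080 without platelets they passed only when platelet replicate 1 was left out of the shared fit (adjusted p = 0.0178 and 0.0309). No interaction passed for these 3 genes (adjusted p = 0.81, 0.637 and 0.428). Gaa, which breaks down glycogen, and the beta-galactosidase gene Glb1 did not pass, Glb1 reaching -0.46 (adjusted p = 0.00103) with platelets when platelet replicate 1 was left out.

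Of the 4 lipid and protein hydrolases, Ppt1, which removes palmitate from proteins, fell in both comparisons (25% each, all genes 49.4% and 50.7%). Ppt1 had 126, 129 and 117 CPM with platelets plus LPS against 149, 189 and 164 CPM with platelets, and 125, 124 and 131 CPM with LPS against 165, 172 and 177 CPM in untreated cells. For Ppt1 the log2 fold changes were -0.43 ± 0.090 with platelets present (adjusted p = 0.000863) and -0.44 ± 0.090 without (adjusted p = 0.000761). Smpd1 (acid sphingomyelinase), Asah1 (acid ceramidase) and the peptidase Tpp1 had log2 fold changes of -0.22 to 0.16 in the LPS comparisons, none past the threshold. Without platelet replicate 1, Asah1 fell with platelets present, -0.29 (adjusted p = 0.00111), and without, -0.14 (adjusted p = 0.0457), and so did Tpp1, -0.25 (adjusted p = 0.00441) and -0.24 (adjusted p = 0.00223). Of the 3 lumenal cofactors, Npc2 is given above and Grn did not pass (log2 fold change -0.076 ± 0.060 and -0.080 ± 0.060), the first becoming -0.16 (adjusted p = 0.0157) without platelet replicate 1. Psap fell with LPS alone (log2 fold change -0.34 ± 0.13, adjusted p = 0.0459), a call lost without any of 8 libraries (adjusted p 0.0522 to 0.227), and was at -0.060 ± 0.13 with platelets present (adjusted p = 0.74). The interaction of Psap did not pass (adjusted p = 0.691).

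All 3 TFE factors passed in both LPS comparisons (100% each, all genes 49.4% with platelets present and 50.7% without), and not in 1 direction. Mitf had 75.0, 73.0 and 108 CPM with platelets plus LPS against 23.3, 22.7 and 21.5 CPM with platelets, and 92.1, 98.2 and 92.9 CPM with LPS against 31.1, 29.2 and 28.9 CPM in untreated cells. Fitted for Mitf, the log2 fold changes were 1.92 ± 0.13 with platelets present (adjusted p = 2.95e-09) and 1.67 ± 0.13 without (adjusted p = 1.45e-08), and the libraries with LPS all lay above those without. Platelet plus LPS replicate 3 stood above its group, and without it the first value was 1.72 (adjusted p = 1.02e-09). Tfe3 had 240.1, 236 and 209.6 CPM with platelets plus LPS against 101, 141 and 148 CPM with platelets, and 235, 221 and 206 CPM with LPS against 151, 156 and 143 CPM in untreated cells. For Tfe3 the log2 fold changes were 0.81 ± 0.12 with platelets present (adjusted p = 3.35e-05) and 0.56 ± 0.12 without (adjusted p = 0.00105), the second lost by library size.

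Tfeb moved the other way, with 19.3, 19.1 and 18.2 CPM with platelets plus LPS against 39.3, 37.7 and 38.6 CPM with platelets, and 20.5, 20.2 and 16.9 CPM with LPS against 40.9, 41.7 and 39.2 CPM in untreated cells. Fitted for Tfeb, the log2 fold changes were -1.03 ± 0.10 with platelets present (adjusted p = 1.81e-07) and -1.08 ± 0.10 without (adjusted p = 1.06e-07). The log2 ratio of Mitf to Tfeb counts was 2.15 ± 0.36 with platelets plus LPS and 2.30 ± 0.15 with LPS, against -0.78 ± 0.062 with platelets and -0.45 ± 0.060 untreated (SD, n = 3 each). Tfec, the remaining gene of the family and one of the other lysosome genes, had 71.6, 73.5 and 74.6 CPM with platelets plus LPS against 13.3, 13.8 and 16.3 CPM with platelets, and 119, 117 and 116 CPM with LPS against 15.7, 14.4 and 16.9 CPM in untreated cells. For Tfec the log2 fold changes were 2.34 ± 0.10 with platelets present (adjusted p = 8.84e-12) and 2.91 ± 0.10 without (adjusted p = 6.64e-13), the largest LPS effect of the 4 family genes in both comparisons.

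**Figure D4:**
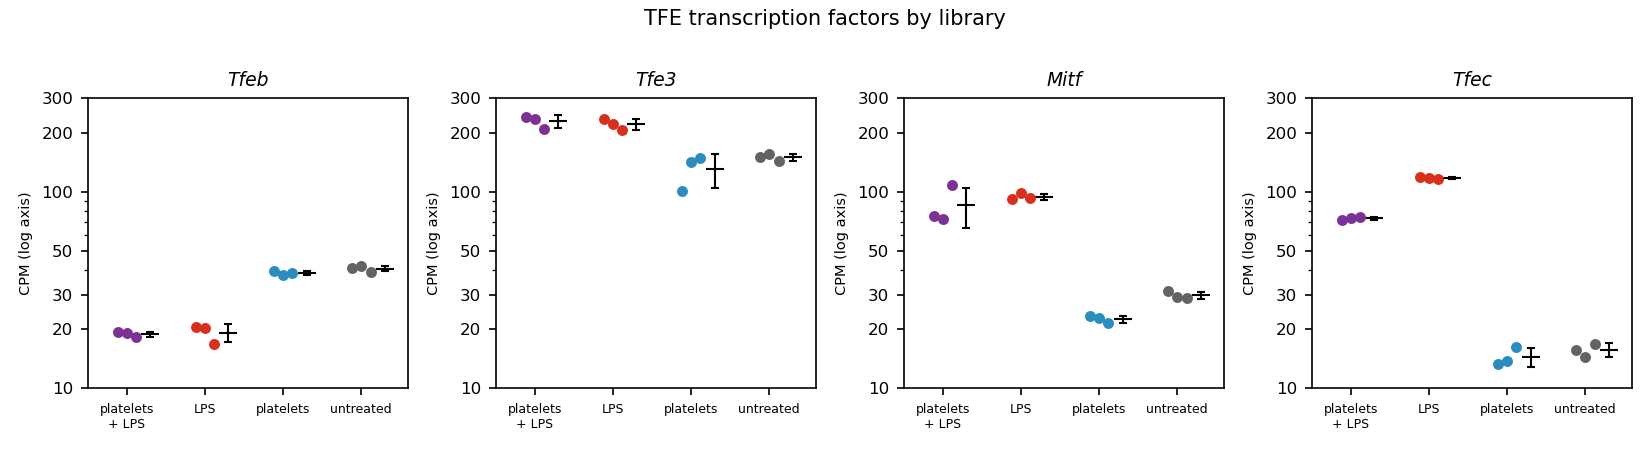
CPM on a log axis of the 4 TFE family genes in the 4 groups, with 1 point per library and the mean ± SD beside the points (n = 3). Tfeb is lower and Mitf, Tfe3 and Tfec are higher in the libraries given LPS, and Tfec lies lower with platelets plus LPS (71.6 to 74.6 CPM) than with LPS (116 to 119 CPM).

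The genes with an E-box in their promoter window were set beside the LPS calls. Of the 9 with CACGTG, 4 passed with platelets present (Atp6v0b higher, Atp6v1a, Mcoln1 and Gla lower) and 2 without (Atp6v0b higher, Mcoln1 lower). Of the 27 with a window and no CACGTG, 16 passed in each comparison, and of the 7 with no window 5 passed in each. Over all genes 49.4% passed with platelets present and 50.7% without. The share among all genes with the E-box is not given here, and no test of the difference between the counts was run.

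In each platelet comparison 6 of the 43 genes passed, by small steps. Against untreated cells, 6 rose with platelets and 0 fell (14%), where 6.49% of all genes passed (3.63% higher, 2.86% lower): Scarb2, Cd63, Grn, Hexa, Gla and Atp6v0c. At an unadjusted p under 0.05, 13 were higher and 4 lower, against 1273 and 1345 of all 13151 genes. By DESeq2, which called 1291 genes against 854 by edgeR, 9 members were higher and 0 lower, and by limma-voom 6 and 0. Against LPS, 5 rose with platelets plus LPS and 1 fell (14%), where 7.28% of all genes passed (4.41% higher, 2.87% lower): Psap, Grn, Scarb2, Gusb and Cd63 higher and Atp6v1b2 lower. Scarb2, Cd63 and Grn rose in both comparisons, 50% of each list, and the matching share over all genes is not given here. The comparisons share no library but take their spread from 1 fit. The median log2 fold change was 0.054 (platelet plus LPS against LPS) and 0.14 (platelet against untreated), against 0.013 and 0 over all genes. The largest member value for platelet against untreated was that of Atp6v0d2, whose platelet libraries all lay above the untreated ones at the low levels printed above. Its log2 fold change of 0.89 did not pass, and without platelet replicate 1 it was 1.10 (adjusted p = 0.0568). A gene that did not pass may still have moved.

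Scarb2 had 103, 95.6 and 103 CPM with platelets plus LPS against 83.2, 79.3 and 77.2 CPM with LPS, and 108, 109 and 98.3 CPM with platelets against 83.6, 80.1 and 76.0 CPM in untreated cells. For Scarb2 the log2 fold changes were 0.33 ± 0.081 with LPS present (adjusted p = 0.0202) and 0.39 ± 0.080 without (adjusted p = 0.00725). Cd63, a tetraspanin of lysosomes that is also known from the granule membranes of platelets, had 571, 637 and 575 CPM with platelets plus LPS against 468, 449 and 403 CPM with LPS, and 956, 677 and 636 CPM with platelets against 479, 510.0 and 550.3 CPM in untreated cells. Fitted for Cd63, the log2 fold changes were 0.43 ± 0.13 with LPS present (adjusted p = 0.0487) and 0.56 ± 0.13 without (adjusted p = 0.0141). Every library with platelets lay above the matched group without for both genes, and platelet replicate 1 was the highest library of Cd63. Without that library the Cd63 value against untreated was 0.38 (adjusted p = 0.00399).

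Grn, the progranulin gene, had 2860.2, 2999 and 2990.3 CPM with platelets plus LPS against 2439, 2402 and 2548 CPM with LPS, and 2981, 3251 and 3094 CPM with platelets against 2598, 2576 and 2636 CPM in untreated cells. For Grn the log2 fold changes were 0.26 ± 0.060 with LPS present (adjusted p = 0.0146) and 0.26 ± 0.060 without (adjusted p = 0.0189). Psap, whose protein travels to the lysosome with progranulin, had 4338, 5002 and 4593 CPM with platelets plus LPS against 2414, 3298 and 3502 CPM with LPS, and 4738, 5788 and 3999 CPM with platelets against 4140.4, 3795 and 3705 CPM in untreated cells. Fitted for Psap, the log2 fold changes were 0.60 ± 0.13 with LPS present (adjusted p = 0.0116) and 0.32 ± 0.13 without (adjusted p = 0.189), and LPS replicate 1 was the lowest library. Without LPS replicate 1 the first value was 0.45 (adjusted p = 0.0518), and without platelet plus LPS replicate 2 it was 0.54 (adjusted p = 0.0617).

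Hexa had 569, 597 and 551 CPM with platelets plus LPS against 531, 528 and 531 CPM with LPS, and 683, 750.3 and 689.5 CPM with platelets against 592, 601 and 567 CPM in untreated cells. For Hexa the log2 fold changes were 0.11 ± 0.069 with LPS present (adjusted p = 0.434) and 0.27 ± 0.069 without (adjusted p = 0.0297). Gla, which carries 2 of the printed sites, had 91.0, 95.1 and 90.4 CPM with platelets plus LPS against 90.7, 82.6 and 95.0 CPM with LPS, and 124, 129 and 117 CPM with platelets against 100.1, 102 and 99.2 CPM in untreated cells. Fitted for Gla, the log2 fold changes were 0.043 ± 0.080 with LPS present (adjusted p = 0.832) and 0.30 ± 0.080 without (adjusted p = 0.0371). Both rose past the threshold only without LPS, and neither interaction passed. Gusb had the reverse pattern, with log2 fold changes of 0.28 ± 0.070 with LPS (adjusted p = 0.0252) and 0.15 ± 0.070 without (adjusted p = 0.24), and its interaction did not pass either (adjusted p = 0.758).

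Atp6v0c had 441, 495 and 431 CPM with platelets plus LPS against 433, 416 and 353 CPM with LPS, and 525, 480.3 and 507 CPM with platelets against 385, 392 and 435 CPM in untreated cells. For Atp6v0c the log2 fold changes were 0.18 ± 0.091 with LPS present (adjusted p = 0.289) and 0.32 ± 0.091 without (adjusted p = 0.0498). Atp6v1b2 was the 1 gene that fell. Its levels, printed above, lay lower in each platelet plus LPS library than in each LPS library, and its log2 fold changes were -0.34 ± 0.072 with LPS present (adjusted p = 0.00891) and -0.16 ± 0.072 without (adjusted p = 0.235). The TFE factors did not pass in either platelet comparison. Mitf was at -0.15 ± 0.12 with LPS (adjusted p = 0.578) and -0.40 ± 0.13 without (adjusted p = 0.0745), and without platelet plus LPS replicate 3 both passed, at -0.35 (adjusted p = 0.0384) and -0.40 (adjusted p = 0.01). Tfe3 was at 0.051 ± 0.12 and -0.21 ± 0.12 and Tfeb at -0.029 ± 0.10 and -0.075 ± 0.093, with adjusted p from 0.366 to 0.911.

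**Figure D5:**
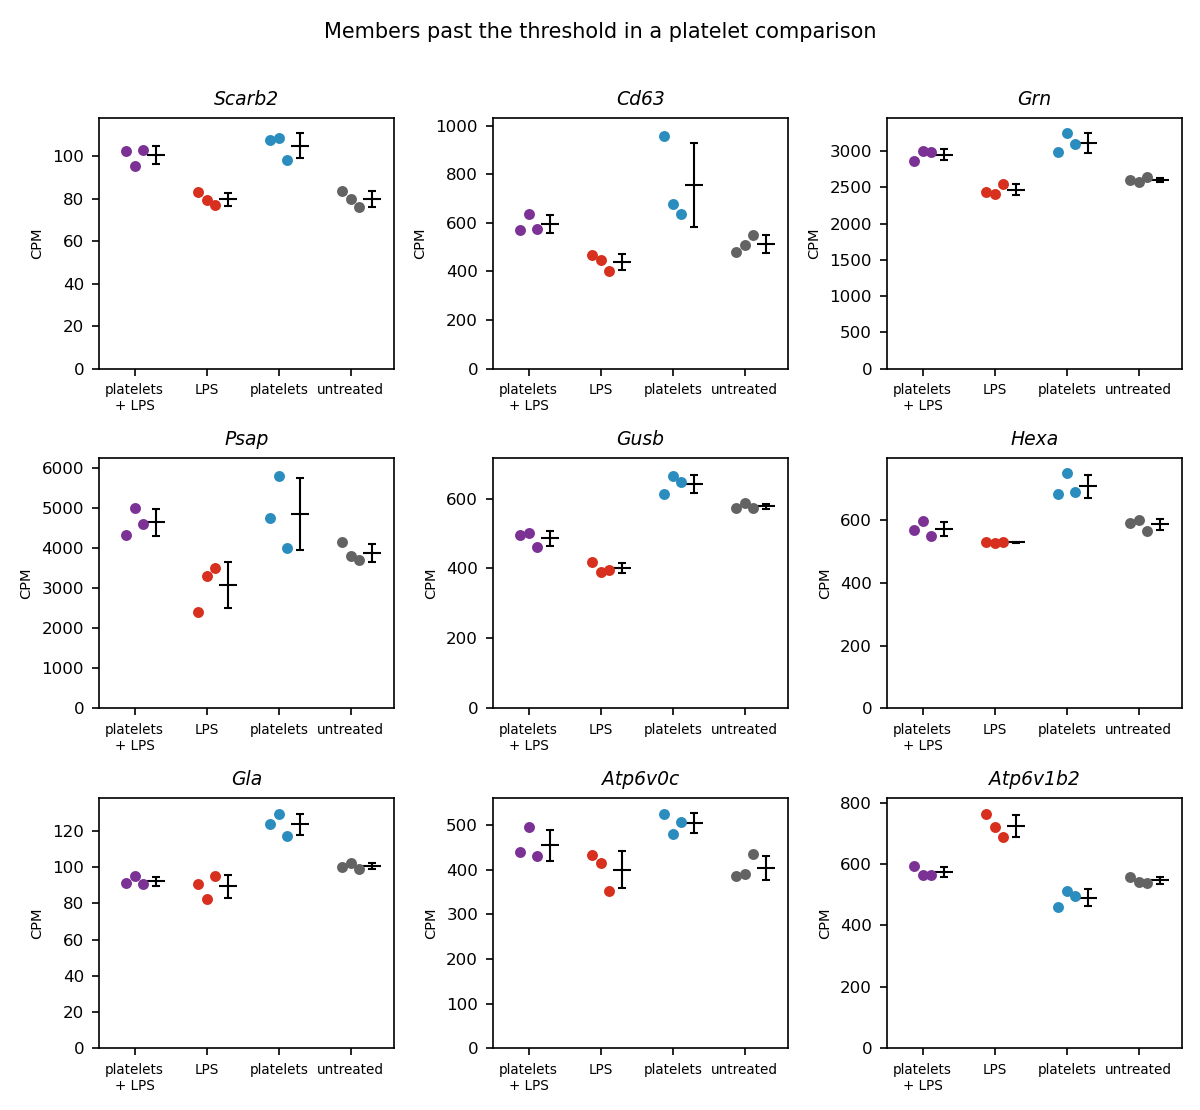
CPM of the 9 genes past the threshold in either platelet comparison, in the 4 groups, with 1 point per library and the mean ± SD beside the points (n = 3). Scarb2, Cd63 and Grn are higher with platelets both with and without LPS, Psap and Gusb pass only with LPS, and Atp6v1b2 is lower with platelets plus LPS than with LPS.

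Single libraries decided these counts. For platelet against untreated, the 6 calls became 10 without platelet replicate 1, 7 without platelet replicate 3, 2 without platelet replicate 2, 3 without platelet plus LPS replicate 1 or untreated replicate 3, and 1 (Scarb2) without untreated replicate 1 or 2. For platelet plus LPS against LPS, the 6 became 11 without platelet replicate 1, 3 without platelet plus LPS replicate 1 or LPS replicate 3, 2 without LPS replicate 1 or 2, and 1 without platelet plus LPS replicate 2. Without platelet replicate 1 all 6 calls of each comparison remained. The added ones were Lamp1, at a log2 fold change of 0.24 (adjusted p = 0.00688), Cd68, Gaa and Gusb for platelet against untreated, and Atp6v1d, Cd68 and Gaa higher and Laptm5 and Asah1 lower for platelet plus LPS against LPS. In the fit of only the groups compared, 0 of the 43 passed for platelet against untreated and 9 for platelet plus LPS against LPS. Calls over all genes moved too. For platelet against untreated they were 854 with all libraries, 410 to 1027 with 1 left out and 415 in the fit of only the groups compared. For platelet plus LPS against LPS they were 957 with all libraries and 557 to 1640 with 1 left out, the most without platelet replicate 1.

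The calls of single genes were lost as follows. For platelet against untreated, Cd63 was lost without untreated replicate 1 or 2 (adjusted p 0.066 and 0.0767), Grn also without platelet replicate 2 (0.0747 to 0.0979), Hexa without 5 libraries (0.0527 to 0.124), Gla without 7 (0.0529 to 0.132) and Atp6v0c without 10 (0.0515 to 0.201), while Scarb2 kept its call without any 1 library. For platelet plus LPS against LPS, Grn was lost without platelet plus LPS replicate 2 or 3 or LPS replicate 1 or 2 (0.0539 to 0.0717), Scarb2 without platelet plus LPS replicate 1 or 3 or LPS replicate 2 or 3 (0.0709 to 0.0858), Gusb without platelet plus LPS replicate 1 or 2 or LPS replicate 2 or 3 (0.0788 to 0.113), Cd63 without 9 libraries (0.0575 to 0.184) and Atp6v1b2 without platelet plus LPS replicate 2 or LPS replicate 1 (0.0544 and 0.0553). No direction turned.

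Platelet and erythroid markers moved with the platelet groups. Of 15 platelet markers 12 were tested, and 7 were higher and 1 lower with platelets plus LPS against LPS, 6 higher and 1 lower with platelets against untreated. The 15 summed to 3643 to 3923 CPM with platelets plus LPS, 3904 to 4717 CPM with LPS, 3415 to 6136 CPM with platelets and 3789.7 to 4498 CPM untreated, nearly all of it Pf4 and Ppbp, which all groups held. Without those 2 the sums were 84.1 to 101 CPM with platelets plus LPS and 2.56 to 3.91 CPM with LPS, 112 to 216 CPM with platelets and 3.23 to 3.50 CPM untreated. Gp1bb was at 0 in every library of all groups but the platelet group, Gp6 and Selp also in every untreated library, and Gp1ba and Nrgn in every LPS library. All 4 tested erythroid markers of 6 were higher with platelets plus LPS and 3 of 4 with platelets, at sums of 7.08 to 9.35 CPM with platelets plus LPS, 0.0362 to 0.650 CPM with LPS, 11.9 to 24.5 CPM with platelets and 1.12 to 1.61 CPM untreated. Their part in the rises of Cd63, Grn, Scarb2 and Psap was not tested.

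Markers of other cells that the samples could hold were lower than those of monocytes. Basophil and mast cell markers summed to 82.7 to 93.8 CPM with platelets plus LPS, 104 to 107 CPM with LPS, 7.85 to 9.71 CPM with platelets and 1.37 to 2.56 CPM untreated, nearly all of it, in the libraries given LPS, Hdc (histidine decarboxylase, 78.0 to 82.7 CPM with platelets plus LPS and 102 to 105 CPM with LPS). The other 4 tested markers of that list had at most 5.57 CPM in any library, and with LPS alone Gata2 rose and Prss34 fell. Dendritic cell markers summed to 90.4 to 105 CPM with platelets plus LPS, 80.7 to 96.7 CPM with LPS, 10.9 to 13.3 CPM with platelets and 6.53 to 8.98 CPM untreated. The 8 genes did not move together with LPS. Against untreated cells 4 rose and 1 fell (log2 fold change -2.20 to 8.78), and with platelets present 3 rose and 1 fell (-2.80 to 6.76). Neutrophil markers summed to 157 to 180.1 CPM with platelets plus LPS, 229.5 to 289.5 CPM with LPS, 195 to 219.5 CPM with platelets and 359 to 384 CPM untreated, and lymphocyte markers to at most 5.03 CPM in any library. With platelets plus LPS against LPS, 2 of 5 tested basophil and mast cell genes rose and 0 fell, 0 of 8 dendritic cell genes passed, 0 of 6 neutrophil genes rose and 1 fell (Mmp8), and of 10 monocyte and macrophage genes 2 rose and 2 fell. With platelets against untreated, 4 basophil and mast cell genes rose and 0 fell, 3 dendritic cell genes rose and 0 fell, 0 neutrophil genes rose and 1 fell (Mmp8), and 1 monocyte and macrophage gene rose and 1 fell. Their part in the lysosomal results was not tested.

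The effect of platelets did not pass a test of difference between cells with and without LPS for any of the 43 genes. In the interaction, which sets the platelet effect in LPS-treated cells against that in cells without LPS, 0 of 43 passed in edgeR, DESeq2 and limma-voom, where 1.58% of all genes passed in edgeR (0.859% higher, 0.722% lower). The smallest p was that of Gla, at -0.25 ± 0.11 on the log2 scale (adjusted p = 0.428), the 1 gene with an unadjusted p under 0.05. A p that misses the threshold does not show that the effects are alike.

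Groups often did not overlap even where the test did not pass. In platelet plus LPS against platelet, 8 of the 43 were higher in every library and 16 lower (55.8%, where 54.8% of all genes did not overlap, 30.2% higher and 24.6% lower), and in LPS against untreated 8 were higher and 24 lower (74.4%, all genes 60.5%, with 32.1% higher and 28.5% lower). In platelet plus LPS against LPS, 12 were higher and 6 lower (41.9%, all genes 27%, with 14.7% higher and 12.4% lower), and in platelet against untreated 12 were higher and 5 lower (39.5%, all genes 25.1%, with 12.5% higher and 12.6% lower). Of the 43 genes, 13 passed in none of these comparisons with all libraries in the fit: Atp6v0d1, Atp6v0e, Atp6v1f, Atp6v1g1, Atp6ap1, Atp6ap2, Lamp1, Lamp2, Gaa, Glb1, Asah1, Smpd1 and Tpp1.

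Other lysosome genes, a list of 82 of which 76 were tested, held shares of calls near those of all genes. Platelet plus LPS against platelet raised 17 and lowered 27 (57.9%, all genes 49.4%), and LPS against untreated raised 14 and lowered 25 (51.3%, all genes 50.7%). Acp5, tartrate-resistant acid phosphatase, had the smallest p of those that rose in both. Acp5 had 129, 151 and 136 CPM with platelets plus LPS against 16.8, 17.3 and 16.1 CPM with platelets, and 92, 95.4 and 90.5 CPM with LPS against 9.78, 8.63 and 9.90 CPM in untreated cells. Fitted for Acp5, the log2 fold changes were 3.05 ± 0.093 with platelets present (adjusted p = 1.86e-13) and 3.29 ± 0.10 without (adjusted p = 1.11e-13). Pla2g15, a lysosomal phospholipase, Tpcn2, an ion channel of the lysosomal membrane, and Slc17a5, the sialic acid exporter, had the smallest p among those that fell, by 2.0, 1.95 and 1.60 with platelets present and by 1.92, 2.09 and 1.62 without, on the log2 scale (SE 0.087 to 0.096).

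Platelet plus LPS against LPS raised 6 of the 76 and lowered 1 (9.21%, all genes 7.28%), and platelet against untreated raised 5 and lowered 2 (9.21%, all genes 6.49%). Acp5 and Naglu, which degrades heparan sulfate, rose in both. Naglu had 47.1, 53.7 and 47.3 CPM with platelets plus LPS against 34.6, 31.2 and 29.1 CPM with LPS, and 61.1, 76.8 and 70.2 CPM with platelets against 48.4, 49.9 and 46.3 CPM in untreated cells. Fitted for Naglu, the log2 fold changes were 0.64 ± 0.10 with LPS present (adjusted p = 0.00124) and 0.53 ± 0.10 without (adjusted p = 0.00504). Plbd2 rose without LPS (0.31 ± 0.078, adjusted p = 0.0278). Tfec fell with LPS present (-0.68 ± 0.091, adjusted p = 0.000228), a call kept under every alternative run. Lipa, lysosomal acid lipase, and Gga3, a sorting adaptor, fell without LPS (-0.39 ± 0.10 and -0.33 ± 0.095, adjusted p = 0.0311 and 0.0474).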

How the data were processed

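RNA from 12 mouse monocyte libraries was sequenced after RNeasy Plus Micro extraction, SMARTer Ultra Low Input cDNA synthesis and NexteraXT library preparation, per the labels. The deposited tables hold raw counts, 1 table per library. Tools named in the submitters' processing notes, without their roles, are featureCounts, STAR 2.7.9a, Salmon 1.5.2, Subread 2.0.1 and fastp 0.23.1. The genome build, annotation, strand setting and treatment of reads that map to several places are unstated in the sources used here, so counts of close paralogs may share reads.

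The 43 members and all other lists were chosen with earlier results of these data known. Counts of all 12 libraries were fitted in edgeR 4.0.16 (R 4.3.3, limma 3.58.1) with 4 group means, TMM scaling and edgeR's default filter on low counts, which left 13151 of 53819 genes. Contrasts were tested, two-sided, by the quasi-likelihood F test with 8 residual degrees of freedom, and p-values were adjusted by Benjamini-Hochberg over all tested genes at 0.05. Values per library are given for the 4 members with the smallest p in each direction of each comparison, for the TFE factors and for the paralog pairs, and other lysosome genes are named by the 3 smallest p in each direction. Other members are given by counts and values chosen after the results were seen. Alternatives were DESeq2 size factors, upper-quartile scaling, library size alone, no or a stricter filter, DESeq2 1.42.0, limma-voom, a replicate block, only the groups compared, and each library left out. The procedure was tested on data simulated for platelet against untreated. It called 29 of 57 genes changed by 0.5 on the log2 scale, 67 of 67 changed by 1 and 76 of 76 changed by 2. Of 12667 unchanged genes, 10 were called. Changes as small as many of the platelet effects given here can thus be missed. No member was called in the interaction, so none is named by that rule. Some genes that the rule or the lists would name are not reported here. Counting precision is set by 20060867 to 32155727 counts per library.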

Additional observations from a re-analysis of the deposited data

Results flagged for a closer look

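Among the other lysosome genes, 2 had a platelet effect that differed between cells with and without LPS by the interaction test of edgeR. They made up 2.63% of the 76 tested, where 1.58% of all genes passed. Fnip2, whose protein works with folliculin at the lysosome, had an interaction of 0.98 ± 0.20 on the log2 scale (adjusted p = 0.0246). Tfec had one of -0.57 ± 0.13 (adjusted p = 0.0464). The Fnip2 call was lost without any of 8 libraries (adjusted p 0.0513 to 0.0842) and the Tfec call without any of 11 (adjusted p 0.0576 to 0.175). Tfec also lost its call by library size alone, without the filter, by limma-voom and with the replicate block.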

How the results depend on the processing

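Of the values of single genes under alternative settings, 4492 kept their side of the threshold, 172 lost a call and 110 gained one. Another 10 turned in direction where the main or the alternative value passed. Some of the 4492 also changed sign, but only where neither value passed. Of the values for counts and medians, 511 stayed near the main value and 113 moved. Among the members, 14 of 23 calls for LPS against untreated and 16 of 25 for platelet plus LPS against platelet held under every alternative run, and 0 of 6 in each platelet comparison. The 10 values that turned did so with scaling. For LPS against untreated, library size alone gave log2 fold changes of -0.36 for Atp6v0e, -0.37 for Atp6ap1, -0.31 for Atp6ap2, -0.38 for Scarb2 and -0.060 for Laptm4a, and the upper quartile gave -0.19 for Atp6ap1 and -0.20 for Scarb2. For platelet plus LPS against platelet, library size gave -0.13 for Atp6v1b2 and -0.026 for Atp6v1h, and the upper quartile -0.012 for Atp6v1b2.

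By library size, 3 members were higher and 31 lower with LPS against untreated and 3 higher and 32 lower with platelets plus LPS against platelets. By the upper quartile 27 fell in the first comparison, and 4 rose and 30 fell in the second. The matching shares of all genes under these scalings are not given here. The members' median with LPS against untreated was -0.16 by DESeq2 size factors and by DESeq2, -0.33 by the upper quartile and -0.51 by library size. With platelets plus LPS against platelets it was -0.38 and -0.50 by the last 2 scalings. For platelet against untreated, library size left 3 member calls and 4 calls among the other lysosome genes. DESeq2 called 1291 genes and 11 other lysosome genes there, and the fit of only the groups compared called 415 genes, 0 members and 4 other lysosome genes. Without the filter 1 member fell there. For platelet plus LPS against LPS, 3 members rose without the filter, 2 fell by DESeq2 and 3 fell in the fit of only the groups compared, and other lysosome calls numbered 11 by DESeq2 and 12 in that fit. The interaction called 371 genes without the filter and 403 by DESeq2, and 1 other lysosome gene by library size and by limma-voom.

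Replicate numbers gave no sign of pairing: deviations of the 18 same-numbered pairs correlated at -0.228 to 0.140, with 1 pair over 0.1. The 36 differently numbered pairs ran from -0.189 to 0.239, with 5 over 0.1. With the replicate block, 3 members rose for platelet against untreated and 3 for platelet plus LPS against LPS, with 3 other lysosome calls in the first comparison. The block left 22 member calls for LPS against untreated and 24 for platelet plus LPS against platelet, and the interaction called 118 genes and 1 other lysosome gene.

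Leaving out each library in turn gave 410 to 1027 genes for platelet against untreated, 557 to 1640 for platelet plus LPS against LPS and 87 to 361 in the interaction. The lowest of these came without untreated replicate 2, platelet plus LPS replicate 2 and untreated replicate 2, in that order of comparisons, and the highest of the last 2 without platelet replicate 1. Member calls ranged from 1 to 10 for platelet against untreated (1 to 10 higher, 0 to 1 lower) and from 1 to 11 for platelet plus LPS against LPS (1 to 8 higher, 0 to 3 lower), against 19 to 31 for LPS against untreated and 21 to 31 for platelet plus LPS against platelet. Calls among the other lysosome genes ranged from 2 (without untreated replicate 1, 2 or 3) to 11 (without platelet replicate 1) for platelet against untreated, and from 4 (without platelet plus LPS replicate 2 or 3 or LPS replicate 2) to 14 (without platelet replicate 1) for platelet plus LPS against LPS. In the interaction they ranged from 0 to 3. The members' median ranged from 0.059 (without platelet replicate 2) to 0.15 for platelet against untreated, from -0.15 to -0.089 (without LPS replicate 2) for LPS against untreated and from -0.20 (without platelet replicate 1) to -0.079 (without platelet replicate 2) for platelet plus LPS against platelet. The least abundant member had 0.833 CPM in its lowest library, against a floor of at most 0.163 CPM for 3 counts. The cause of these changes was not tested.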

Other observations

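Some osteoclast markers moved with platelets as well as with LPS. Of 6 tested markers of 8, 2 rose and 0 fell with platelets plus LPS against LPS, and 3 rose and 1 fell with platelets against untreated. Ctsk, the bone-degrading cathepsin K, had 18.8, 18.8 and 14.6 CPM with platelets plus LPS against 4.67, 5.20 and 6.05 CPM with LPS, and 32.1, 31.8 and 30.9 CPM with platelets against 9.12, 7.96 and 9.08 CPM in untreated cells. Both rises passed (edgeR, log2 fold change 1.72 ± 0.14 with LPS, adjusted p = 8.6e-07, and 1.86 ± 0.13 without, adjusted p = 2.51e-07), and the groups did not overlap. Acp5 was the other marker that rose in both comparisons, and Mmp9 rose with platelets against untreated. Ocstamp, a membrane protein of osteoclast fusion, fell there by 1.54 on the log2 scale (adjusted p = 0.0345). By sign alone 3 of the 6 were higher and 3 lower in each platelet comparison.

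LPS moved the same markers in both directions, with 3 rises and 3 falls in each LPS comparison. Ctsk fell by 0.86 with platelets present and by 0.73 without, on the log2 scale. Nfatc1, the osteoclast transcription factor, fell by 1.49 with platelets present and by 1.91 without. Mmp9, a gelatinase that neutrophils and macrophages also make, rose by 1.76 with platelets present and by 3.0 without, and its interaction was -1.23 ± 0.24 (adjusted p = 0.0177). The 8 markers summed to 191 to 209 CPM with platelets plus LPS, 141 to 147 CPM with LPS, 90.8 to 111 CPM with platelets and 72.5 to 84.8 CPM untreated.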
